A study of Mus musculus with 2 samples.

Results

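The Schlafen genes of the mouse encode a family of interferon-inducible proteins that were first described in developing thymocytes. The 7 genes Slfn1, Slfn2, Slfn3, Slfn4, Slfn5, Slfn8 and Slfn9 were chosen by name from 43346 genes measured in newborn thymus. Earlier results of these data were known when they were chosen, and all 7 were found in both gene tables. Total RNA had been sequenced from both thymus lobes of 2 newborn pups (postnatal day 0, strain B6NCrl, sex not collected), 1 library per pup, from 10 ng of RNA each. The pups share 1 mother and no treatment is named, so the libraries form 1 group of 2 replicates, called replicate 1 and replicate 2. The labels describe 2 pups but give both libraries the same donor identifier, and the SDs may therefore hold little more than technical spread. No conditions could be compared, and the values describe levels and how far the 2 littermates differed. The libraries held 39045711 and 41576378 expected counts (reads assigned to genes by an estimate). Levels are in TPM, a relative abundance per transcript length, as both values or as mean ± SD over the 2 libraries.

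Schlafen proteins share an amino-terminal core that in several members binds or cuts transfer RNA, and they differ in what follows it. Slfn1 and Slfn2 are short forms, Slfn3 and Slfn4 are intermediate, and Slfn5, Slfn8 and Slfn9 are long forms whose carboxy-terminal region resembles RNA and DNA helicases. Type I interferon induces the family through its receptor, the kinases Jak1 and Tyk2 and a transcription factor complex with Irf9 that binds a DNA element with the core GAAA, 2 bases of any kind, GAAA. In T cells the family is best known for Slfn2, whose mutation in the mouse strain elektra makes resting T cells lose quiescence and die when activated.

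The coding lengths followed these forms. The longest annotated coding sequence had 1011 bases in Slfn1 and 1134 in Slfn2. It had 1551 in Slfn3 and 1806 in Slfn4, and 2652 in Slfn5. In Slfn8 and Slfn9 it had 2730 each. All 7 genes lie within 263.8 kb on chromosome 11 (82951349 to 83215154, GRCm38). Slfn8 and Slfn9 are on the minus strand and the other 5 on the plus strand.

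The interferon core was looked for in the promoters, here 250 bases before to 50 bases after each RefSeq start (GRCm38.p6), on both strands. All 7 members had a promoter entry and 3 held a match, namely Slfn5, Slfn8 and Slfn9, the long forms among the members. Of 27025 genes with a promoter entry 3.99% held one, as did 3.44% of 32851 promoters. The windows of these 3 promoters are shown because they carry the match, in capitals, with 30 bases on each side. They are written along each gene's own strand, so that a match starting with TTTC is the core on the opposite strand.
Slfn5, chr11:82951917-82951986, plus strand: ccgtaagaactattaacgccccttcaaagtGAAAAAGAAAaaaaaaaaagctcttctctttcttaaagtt
Slfn8, chr11:83020819-83020888, minus strand: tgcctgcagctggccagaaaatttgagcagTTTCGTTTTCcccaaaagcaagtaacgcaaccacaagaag
Slfn9, chr11:82991836-82991905, minus strand: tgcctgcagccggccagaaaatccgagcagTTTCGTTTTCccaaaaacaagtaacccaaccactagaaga
The first base of the match lies 155 bases before the RefSeq start in Slfn5 and 45 in Slfn9. The Slfn5 promoter searched, 82951852 to 82952151, lies inside the gene as GENCODE M21 annotates it, from 82951349 on. The stretch around that M21 start was not searched. The Slfn5 match also runs on into further A bases. Slfn8 has 2 annotated starts, and the same match lies 48 bases before one and 136 before the other. The Slfn8 and Slfn9 promoters were 84.9% identical over 292 aligned bases, so their shared match is not a separate observation. These letters were not in the windows of Slfn1, Slfn2, Slfn3 and Slfn4. They were also absent from those of Slfn14, a long form that is no member, and of the related gene Slfnl1. A match is a stretch of letters, and binding was not measured here.

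Slfn2 was by far the most abundant member, at 117 TPM in replicate 1 and 107 TPM in replicate 2 (112 ± 6.86 TPM). It held 81.3% and 80.4% of the summed TPM of the 7 genes, which came to 144 and 133 TPM. Slfn2 ranked 1518 among 43346 genes, above 93.5% of protein-coding genes and 89.1% of the 13957 genes detected, that is, with at least 1 TPM in both libraries. Its level was 14.2 times that of the next member. The value rested on 5394 and 5337 counts, and both libraries were alike.

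The other short form, Slfn1, which when overexpressed in mouse T cells slows their growth, stood far lower. It had 3.40 and 2.51 TPM, from 177 and 141 counts. Its 2 values lay below every value of Slfn2 and above both values of Slfn4. Slfn1 was above 16.3% of detected genes.

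The intermediate forms stood apart from each other. Slfn3, studied mainly in gut epithelium and in CD4+ T cells, had 4.11 and 5.19 TPM, from 208 and 283 counts. Slfn4, known from myeloid cells, where it falls as macrophages mature, had 0.330 and 0.0800 TPM. These came from 37.1 and 9.04 counts, and Slfn4 was the member that was not detected. The coding sequences of Slfn3 and Slfn4 were 95.3% identical over 1521 aligned bases, 84.2% of the longer sequence, yet Slfn3 was higher in both libraries.

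The long forms among the members lay between 4.65 and 8.60 TPM, a range that the intermediate form Slfn3 also reached in replicate 2 (5.19 TPM). Slfn5, whose human counterpart is a nuclear protein that represses transcription, had 8.60 and 7.22 TPM, from 542 and 471 counts. Slfn8 had 5.82 and 4.87 TPM, from 582 and 542 counts. Slfn9 had 4.65 and 6.26 TPM, from 457 and 704 counts. Both Slfn5 values lay above all values of Slfn8 and Slfn9, while Slfn8 was the higher of that pair in replicate 1 and Slfn9 in replicate 2.

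In all, 6 of the 7 genes were detected, against 32.2% of all genes and 57.3% of protein-coding genes. The median member was at 5.345 TPM, beside 0.08 TPM for all genes, 2.865 TPM for protein-coding genes and 15.025 TPM for detected genes. By mean TPM the order was Slfn2, Slfn5, Slfn9, Slfn8, Slfn3, Slfn1 and Slfn4. Of its 6 pairs of neighbours 4 did not overlap between genes, and 2 did. The overlapping pairs were Slfn9 with Slfn8 (means 1.02 times apart) and Slfn8 with Slfn3 (1.15 times), so the order of these 3 is not settled. With replicate 1 left out, 5 of the 6 pairs kept their direction, and likewise with replicate 2 left out.

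**Figure D1:**
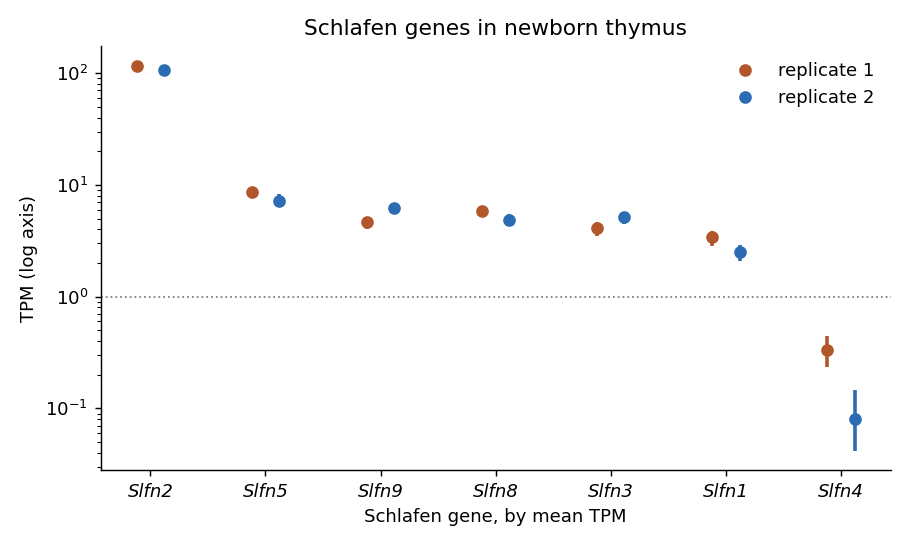
TPM of the 7 Schlafen genes (log axis) in replicate 1 and replicate 2, ordered by mean. Points are the deposited values, vertical lines the deposited interval of each estimate, whose level is not given in the sources used here, and the dotted line is 1 TPM. Slfn2 sits near 112 TPM, 5 genes between 2.51 and 8.60 TPM, and Slfn4 below 1 TPM.

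Because close copies can share reads, the sequences were compared. Identity over aligned coding bases was 92.7% for Slfn8 with Slfn9 and 95.3% for Slfn3 with Slfn4. For Slfn2 with Slfn4 it was 75.1%, and every other pair lay at or below 75.9%. The longest identical coding run was 139 bases in Slfn8 and Slfn9, 95 in Slfn3 and Slfn4 and 101 in Slfn2 and Slfn4. The last is the longest run of any pair but Slfn8 with Slfn9, although 4 pairs had a higher identity over their whole aligned length. The run of Slfn3 and Slfn4, at 95 bases, is shorter than the stretches of 100 bases that are counted below. Of such stretches Slfn2 and Slfn4 shared 2 between their transcripts, and Slfn8 and Slfn9 shared 50. These 3 runs are shown, with 15 bases on each side and capitals where the partners differ, as the longest of their pairs.
Slfn8 with Slfn9, chr11:83003119-83003287, exon 5 of Slfn8-202: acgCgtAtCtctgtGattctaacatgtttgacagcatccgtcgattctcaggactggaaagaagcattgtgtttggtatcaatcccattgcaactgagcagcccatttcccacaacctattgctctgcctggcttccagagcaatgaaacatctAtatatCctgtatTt
Slfn9 with Slfn8, chr11:82981216-82981384, exon 6 of Slfn9-202: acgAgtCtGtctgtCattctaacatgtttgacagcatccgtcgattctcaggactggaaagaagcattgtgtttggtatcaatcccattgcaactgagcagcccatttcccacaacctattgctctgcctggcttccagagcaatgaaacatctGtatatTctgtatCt
Slfn3 with Slfn4, chr11:83214596-83214720, exon 3 of Slfn3-201: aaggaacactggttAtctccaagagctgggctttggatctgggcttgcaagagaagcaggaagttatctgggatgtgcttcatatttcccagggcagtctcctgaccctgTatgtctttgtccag
Slfn4 with Slfn3, chr11:83188771-83188895, exon 7 of Slfn4-202: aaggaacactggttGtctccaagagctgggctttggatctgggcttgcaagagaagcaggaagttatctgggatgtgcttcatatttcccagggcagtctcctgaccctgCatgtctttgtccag
Slfn2 with Slfn4, chr11:83070082-83070212, exon 2 of Slfn2-201: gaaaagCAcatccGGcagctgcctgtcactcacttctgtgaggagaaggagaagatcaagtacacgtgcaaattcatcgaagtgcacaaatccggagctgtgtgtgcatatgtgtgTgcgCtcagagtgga
Slfn4 with Slfn2, chr11:83187318-83187448, exon 6 of Slfn4-202: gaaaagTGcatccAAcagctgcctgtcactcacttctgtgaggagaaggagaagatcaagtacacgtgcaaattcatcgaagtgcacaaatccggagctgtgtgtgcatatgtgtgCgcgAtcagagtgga
The members of each pair differed at 7, 2 and 6 of the bases shown. Coding sequences are those of GENCODE M21 and run 5′ to 3′ along each gene.

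**Figure D2:**
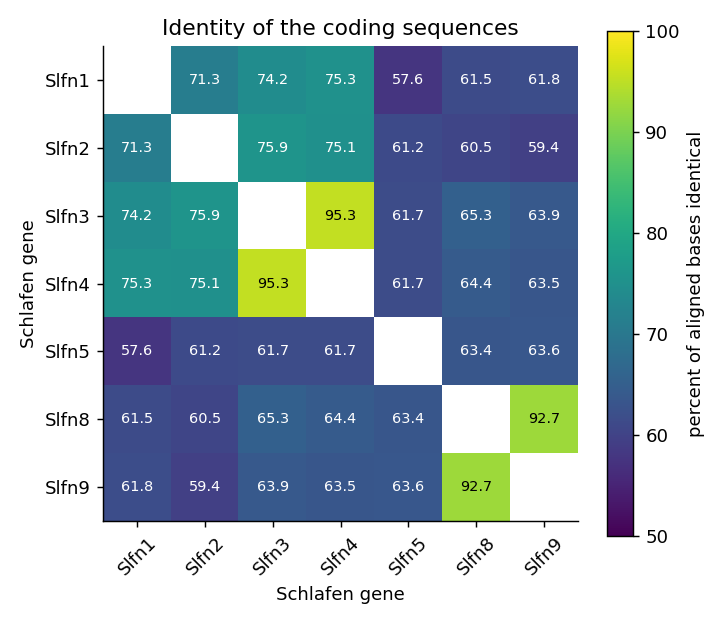
Percent of aligned coding bases that are identical for each pair of Schlafen genes, by global alignment of the longest coding sequences. Slfn3 with Slfn4 (95.3%) and Slfn8 with Slfn9 (92.7%) stand above all other pairs.

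Within the family most of each transcript was particular to its gene over words of 100 bases. Transcript lengths exceeded the deposited effective lengths by 99 bases, so words of 100 bases were counted. All of those of Slfn1 and Slfn5 occurred in no other Schlafen-related gene, as did 99.9% for Slfn2, 99.7% for Slfn4, 96.6% for Slfn8, 96.3% for Slfn9 and 94.6% for Slfn3. With words of 25 bases the share was 50.4% for Slfn3 and 66.9% for Slfn8. Against all genes, compared over words of 50 bases, 97.0% of the Slfn5 words were in no other gene, and the rest were shared with 240 genes outside the family. Slfn3 shared its 100-base words with Gm11427, an annotated pseudogene beside it, while Slfn8 and Slfn9 shared theirs with each other and with Slfn10-ps, a transcribed pseudogene of the family.

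The deposited counts showed the same grouping. Slfn1 and Slfn5 had whole counts in both libraries, whereas Slfn3, Slfn4, Slfn8 and Slfn9 had fractional counts in both. The counts of Slfn8, Slfn9 and Slfn10-ps added up to 2111 and 1848, and those of Slfn2, Slfn3, Slfn4 and Gm11427 to 5766 and 5753, each within 0.01 of a whole number. The deposited SD of the count over possible assignments was 3.73 and 3.61 reads for Slfn8 and 3.90 and 4.84 for Slfn9. It was 2.86 and 3.30 for Slfn3, and at most 0.330 for Slfn2 and Slfn4. These lie below the counting error, which is 24.1 and 23.3 reads for Slfn8.

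The pseudogene Slfn10-ps (chromosome 11, 83028130 to 83040042) was expressed near the level of the long-form members, with 10.3 and 5.37 TPM from 1071 and 602 counts. As a ratio, though not in TPM, its 2 values differed more than those of any detected member. Both Slfn5 values fell between them. Slfn14, a long form known from platelet ribosome turnover, had 0.01 and 0.03 TPM from 1 and 3 counts, and the related gene Slfnl1 on chromosome 4 had 1 count in each library.

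The transcript tables hold 17 transcripts of the 7 genes. Slfn1, Slfn2 and Slfn3 had 1 transcript each and the other 4 had several. The highest was the same in both libraries for Slfn5, Slfn8 and Slfn9. Slfn4 was assigned wholly to Slfn4-201 in replicate 1 and wholly to Slfn4-202 in replicate 2. With 37.1 and 9.04 reads, and a deposited SD of 4.63 and 2.82 reads for Slfn4-201, this switch cannot be told from an uncertain assignment, and both encode 1806 coding bases.

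Slfn5 was divided between a full form and a truncated model. Slfn5-203 took 62.7% and 60.6% of the TPM of the gene, and Slfn5-201 took 33.9% and 31.0%. Slfn5-203 is a model of 1263 bases whose coding sequence of 1134 bases is annotated as incomplete at its end, while Slfn5-201 encodes all 2652 bases. By expected counts the order turned round, with 34.2% and 34.4% for Slfn5-203 and 63.1% and 60.2% for Slfn5-201, since TPM divides by length. Slfn5-201 was 4080 bases long in the deposited tables and is 5979 in M21.

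Slfn8 was assigned to a long and a shortened reading frame. Slfn8-201, with 2730 coding bases, took 51.4% and 60.8% of TPM. Slfn8-203, with a complete coding sequence of only 1221 bases, took 41.6% and 34.1%. Slfn8-202 and Slfn8-205 were listed at 0 in both libraries. The deposited SDs for Slfn8-201 were 33.8 and 31.9 reads of 345 and 369, larger than the SDs of the whole gene.

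Slfn9 showed a similar division. Slfn9-201 (2730 coding bases) took 54.4% and 59.0% of TPM. Slfn9-203, a model incomplete at its end, took 45.6% and 35.95%. Slfn9-202 took 0% and 5.07%, from 0 and 37.99 counts. Its deposited SD was 21.5 and 32.0 reads, so the difference lies within the uncertainty of assignment. All these shares depend on the transcripts annotated.

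**Figure D3:**
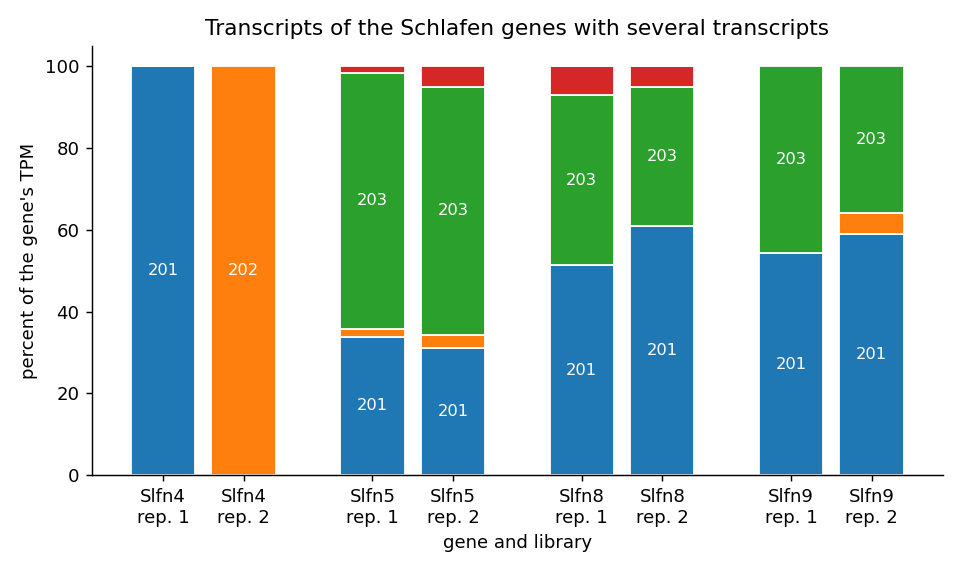
Percent of each gene's TPM assigned to each of its transcripts in replicate 1 and replicate 2, for the 4 Schlafen genes with several transcripts. Numbers in the bars are transcript numbers (201 for Slfn5-201), and shares of 8% or less carry no number. Slfn5-203 leads Slfn5, and Slfn4 is assigned to a different transcript in each library.

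Between the 2 libraries Slfn2 hardly differed and the lower members differed somewhat more. Ratios are expected counts of replicate 1 over replicate 2 after TMM scaling, with an exact binomial 95% interval that covers counting error only. Over 14155 genes the squared difference between the libraries averaged 23.4 times its sampling variance. Such intervals are thus too narrow for differences between libraries, also where they leave out 1. Slfn2 gave 1.06 (1.02 to 1.10). Slfn5 gave 1.20 (1.06 to 1.36), Slfn8 1.12 (0.997 to 1.26) and Slfn1 1.31 (1.05 to 1.65). Slfn9 (0.679, 0.602 to 0.765) and Slfn3 (0.769, 0.640 to 0.923) had the higher value in replicate 2. With 1 library per pup these ratios compare 2 libraries, and no test of a biological difference was possible.

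At a mean count of 50 or more, which 6 members reached, none differed over 2-fold. Of the 14155 genes at that depth 1.35% did, 1.15% with the higher value in replicate 1 and 0.198% in replicate 2. None differed over 1.5-fold either, where the share of all genes was 4.75%. The median absolute log2 ratio of these 6 was 0.32, beside 0.13 for all genes. Slfn4 fell below that depth. It was 4.12-fold (2.04 to 10.1) higher in replicate 1. Of the 17986 genes that averaged 10 counts or more, 3.48% were over 2-fold higher in replicate 1, and 4.67% differed over 2-fold in either direction. These genes include the 14155 that averaged 50 or more, where the shares were 1.15% and 1.35%. Among genes of 10 to 50 counts, where Slfn4 lies, both shares are therefore above 3.48% and 4.67%.

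Granulocyte genes, given beside Slfn4, were mixed in direction. Of 8 markers, 7 had a mean count of at least 50, and of these 5 were higher in replicate 1 and 2 in replicate 2. The summed level of 8 granulocyte markers, 7 of them detected, was 188 TPM in replicate 1 and 119 TPM in replicate 2. Ltf, which encodes lactoferrin, differed 4.21-fold (4.93 and 1.13 TPM), and Ngp, which encodes a granule protein, 2.42-fold (6.46 and 2.58 TPM), both higher in replicate 1. Of all genes with a mean count of at least 50, 1.15% were over 2-fold higher in replicate 1. The markers higher in replicate 2 were Ly6g, which defines mature granulocytes, at 1.97 and 2.58 TPM, and Mpo, which encodes myeloperoxidase, at 4.10 and 5.18 TPM. S100a8 made up most of the sum, at 123 and 82.4 TPM. The 10 macrophage and monocyte markers, all detected, summed to 350.0 and 364 TPM. Detection reached 57.3% over all protein-coding genes. The part of granulocytes in the Slfn4 difference was not tested. In such bulk tissue fewer cells of a type and less RNA per cell cannot be told apart.

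The difference in Slfn9 stood beside an opposite one in its relative Slfn10-ps, which had 1.86 times (1.68 to 2.06) as many scaled counts in replicate 1. Together Slfn8, Slfn9 and Slfn10-ps gave a ratio of 1.19 (1.12 to 1.27). Gm11425, a pseudogene next to Slfn10-ps, also had the higher level in replicate 1, at 7.88 and 3.70 TPM. The part of read assignment between these close copies in the Slfn9 difference was not tested.

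**Figure D4:**
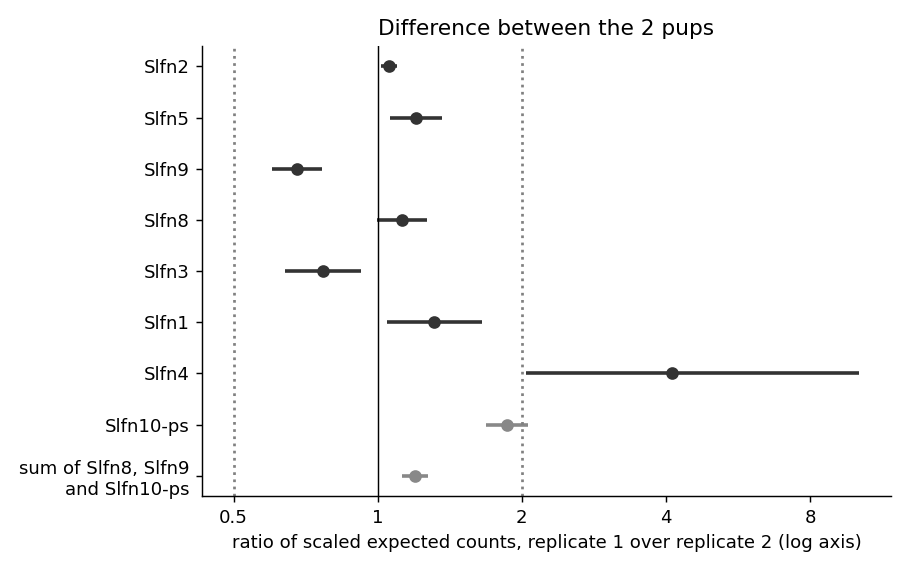
Ratio of TMM-scaled expected counts, replicate 1 over replicate 2 (log axis), for the 7 Schlafen genes, for Slfn10-ps and for the sum of Slfn8, Slfn9 and Slfn10-ps. Points are ratios, lines exact binomial 95% intervals for counting error, and dotted lines mark 2-fold. Slfn4, at 4.12, is the only one of the 9 entries whose point lies past 2-fold.

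Within the cluster Slfn2 lies between Slfn10-ps, at 7.845 TPM, and Slfn1, at 2.955 TPM, and stood far above both. Of the 22 genes that M21 annotates there, 13 had a row in the tables, and of the 6 that are no members 2 reached 1 TPM in both libraries, Slfn10-ps and Gm11425. The antisense gene Slfn5os, which overlaps Slfn5, had 2.19 and 0 counts. A second antisense gene, Gm20234, overlaps Slfn2 and was not analysed here, so reads from it, if any, could not be told from those of Slfn2 without knowledge of strand. The nearest protein-coding neighbours ranged widely, with Nle1 at 30.6 ± 0.997 TPM and Ap2b1 at 27.3 ± 2.02 TPM, but Fndc8, Slfn14, Rasl10b and Gas2l2 below 1 TPM.

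**Figure D5:**
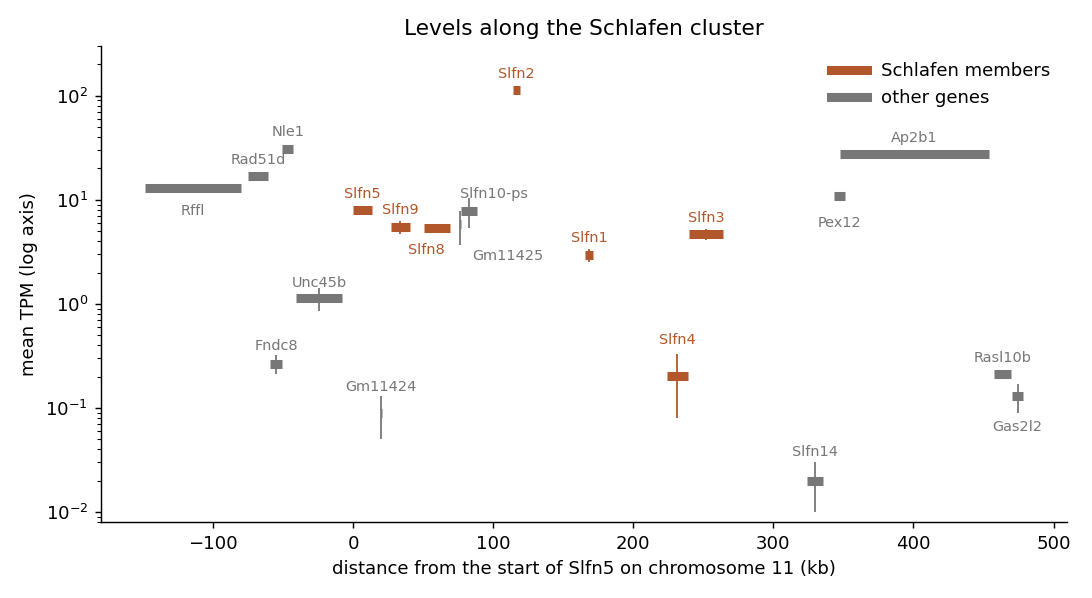
Mean TPM (log axis) of the genes of the Schlafen cluster and the 5 nearest protein-coding genes on each side on chromosome 11, against distance in kb from the lowest coordinate of Slfn5. Thick bars span each gene, thin lines join the 2 libraries, and genes listed at 0 in a library and noncoding genes outside the cluster are not drawn. Slfn2 stands above every gene drawn, but not above AI662270, a noncoding gene beyond Slfn3 that is left out here (157 and 171 TPM).

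Genes of the interferon pathway were measured beside the family. None of 8 type I interferon ligand genes was detected, and their median was 0.045 TPM. Of all protein-coding genes 57.3% were detected. The highest, Ifnz, had 0.180 and 0.250 TPM, and Ifna2 and Ifna5 had 0 counts in both libraries, where up to 3 counts (0.0768 and 0.0722 CPM) would be allowed. All 15 receptor and signalling genes passed 1 TPM (median 58.8 TPM). The interferon gamma receptor chain Ifngr1 led them at 492 ± 59.2 TPM, followed by the inhibitor Socs1 (315 ± 47.2 TPM). The kinase Tyk2 was the lowest at 9.39 ± 0.693 TPM.

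Of 20 interferon-induced genes 18 passed 1 TPM (median 18.4 TPM), beside 57.3% of all protein-coding genes. The highest was Bst2, which tethers budding virus, at 134 ± 0.827 TPM. Oasl2 and the ubiquitin-like Isg15 followed at 69.8 ± 11.6 and 60.0 ± 2.50 TPM. Slfn2 thus stood between Bst2 and Oasl2, and the other 6 members stood at or below 7.91 TPM. At the low end were Oas2 (0.700 and 0.520 TPM) and Mx2 (0.930 and 1.82 TPM), both of which missed detection. All 20 had a mean count of at least 50, and none differed over 2-fold between the libraries. Of all genes at that depth only 1.35% did. Among the 20, 7 were higher in replicate 1 and 13 in replicate 2, where the median log2 ratio over all genes was -0.02.

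Genes that cut transfer RNA or guard it were all detected (8 of 8, beside 57.3% of all protein-coding genes), at a median of 14.1 TPM. The methyltransferase Nsun2 led them at 106 ± 3.60 TPM, followed by Rnh1, an inhibitor of angiogenin, at 59.2 ± 0.318 TPM. Angiogenin itself (Ang), the nuclease from which mouse Slfn2 shields transfer RNA, was at 4.16 ± 0.594 TPM. Of 12 genes linked to T-cell quiescence all were detected, beside the same 57.3%, at a median of 16.245 TPM. The antiproliferative genes Btg2 and Btg1 were at 268 ± 12.6 and 108 ± 7.27 TPM, and Foxo1 was the lowest at 7.44 ± 1.29 TPM.

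The tissue label held against its markers. All 8 thymocyte markers were detected, beside 57.3% of all protein-coding genes, with sums of 3348 and 3445 TPM. Among them Lck was at 1239.78 TPM and Cd4 at 84.1 TPM. All 8 thymic epithelial markers were detected as well. Of 5 B-cell markers only Cd79b was detected, at 32.3 ± 0.820 TPM, while Pax5 was below 1 TPM in both libraries. Detected were also 4 of 7 dendritic cell, 4 of 5 NK-cell, 4 of 6 erythroid and megakaryocyte and 7 of 7 mesenchymal and endothelial markers. Which of these cells held the Schlafen transcripts cannot be told from whole tissue.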

How the data were processed

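Each library came with a gene and a transcript table. The authors deposited expected counts without normalization, TPM and FPKM per effective length, and the percent of a gene's TPM per transcript. The deposited interval bounds of TPM and the SD of the count over read assignments were used as a signal, as given. The build was mm10, per the labels. Texts deposited with the tables name M4 as gene annotation. Which aligner, quantifier and strand setting were used is not given in the sources used here.

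Symbols, coordinates and transcripts came from GENCODE M21 (GRCm38), by identifier without version. This matched 42462 of 43346 genes. Spike-ins (96 rows), 1 further control row and 26248 rows named only by a number, with 0.000105% and 4.04e-05% of counts, were left out. Scale factors were computed from rounded expected counts with edgeR 4.0.16 (TMM), with DESeq2 1.42.0 as an alternative. Log2 ratios used the unrounded expected counts and a prior count of 0.5, and the binomial intervals used rounded counts. A count of 0 allows up to 3 counts, and intervals and this limit cover counting error only. Coding sequences were aligned with Biopython 1.88. Words were taken from M21 sequences of deposited transcripts, for the 7 genes, Slfn10-ps, Slfn14, Slfnl1 and Gm11427. The scaling was tested on simulated data, in which 0.00717% of unchanged genes passed 2-fold. In these libraries 1.35% of genes at that depth did. The simulated libraries thus varied less than these, so the test does not tell how the scaling does on these data. Over 14155 genes the squared difference between the libraries averaged 23.4 times its sampling variance (chi-square over degrees of freedom). Neither table is therefore a copy of the other. This does not tell whether they come from 1 animal or 2.

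The members and lists were chosen with earlier results of these data known. Named were all members, genes of the cluster, other Schlafen genes and, per list, the 3 highest and 3 lowest genes, those below 1 TPM and those over 2-fold apart. Gm11427 and AI662270 were named after their values were seen. Protein sequences were not used here.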

Additional observations from a re-analysis of the deposited data

Results flagged for a closer look

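Rows whose identifier is only a number, which no comparison uses, held 41.0 counts in replicate 1 and 16.8 counts in replicate 2. These are sums over 26248 rows, so the limit of 3 counts for a single count of 0 does not apply to them.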

How the results depend on the processing

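No paired analysis was possible because there is 1 group. The summed level of the 7 genes (138.6 TPM) was 136.4 with posterior mean TPM, 105.3 in FPKM and 167 when TPM was rescaled to protein-coding genes, and ranged over 133.3 to 143.8 with each library alone. FPKM and the rescaled TPM multiply all genes of a library by 1 factor. The 6 genes detected fell to 2 at 5 TPM (Slfn2 and Slfn5) and stayed at 6 at 0.5 TPM, in FPKM and in each library alone. The 4 pairs of neighbours that did not overlap were 4 with posterior mean TPM and 4 when Slfn8 with Slfn9 and Slfn3 with Slfn4 were summed. Judged by the deposited intervals within 1 library they ranged over 3 to 4. The count over 2-fold, 0, was 1 with a minimum count of 10 or with none (Slfn4), and 2 with spike-in scaling (Slfn3 and Slfn9, higher in replicate 2). That scaling rests on 659 and 427 spike-in counts and put the median log2 ratio over all genes at -0.71, beside -0.02 under TMM, with 30 genes over 2-fold higher in replicate 1 and 977 in replicate 2, beside 163 and 28. Under it Slfn1, Slfn2, Slfn5 and Slfn8 also turned to higher in replicate 2 (-0.30, -0.61, -0.42 and -0.52), so directions between the pups are relative to the bulk of genes. Under DESeq2 size factors, TPM ratios, posterior mean counts and a prior count of 2 all 7 ratios stayed within their counting intervals. The number of genes with the same highest transcript, 3 of 4, was 3 by expected counts, and with 1 library it has no value. Depth limits Slfn4 most.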

Other observations

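Just beyond Slfn3 lies AI662270, a noncoding gene (chromosome 11, 83223576 to 83226604, plus strand) that was singled out after its values were seen. It had 157 and 171 TPM, from 5454 and 6652 counts, and so stood above Slfn2 in both libraries. It overlaps Gm11427, which had 2.84 and 2.57 TPM.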
